A study of Mus musculus with 26 samples.

Results

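Lta, Ltb, Tnf and Tnfsf11 encode lymphotoxin alpha, lymphotoxin beta, tumour necrosis factor (TNF) and RANKL, 4 ligands of the TNF superfamily. They were taken by gene symbol as 4 of the 23762 genes in a table of RNA-seq counts, and all 4 passed the filter on low counts that left 14862 genes for testing. Lta and Tnfsf11 had been picked because they were among the largest falls when interleukin 7 (IL-7), a cytokine that B cell progenitors need to grow, was removed from mouse pre-B cell cultures, so their values in that comparison are given as a description. The series asks how CXCR4, the receptor of the chemokine CXCL12, acts on pre-B cells, the stage that rearranges immunoglobulin light chain genes. Its 18 RNA-seq libraries form 9 groups of 2. Sorted small pre-B cells were labelled CXCR4-/- or wild type. Cultured CXCR4-/- small pre-B cells lacked IL-7 and were given CXCL12 or nothing. Cultured pre-B cells with no CXCR4 deletion in their labels, called CXCR4-sufficient here, came in 5 media: CXCL12 and ERK inhibitor II (a small-molecule inhibitor of ERK kinase signalling) without IL-7, IL-7 with CXCL12, CXCL12 without IL-7, neither factor, and IL-7 alone. How and in which cells the Cxcr4 deletion was made, the age of the animals, the doses and the culture times are not stated in the sources used here. Nothing in the labels states that replicates are separate animals or cultures, and every p-value therefore reflects the spread among these libraries, possibly a technical one.

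Most TNF superfamily ligands are made as membrane proteins. The ligands assemble into trimers and bind receptors which recruit TRAF adaptors and activate NF-kB or cell death. Lymphotoxin alpha is secreted as a homotrimer that binds the TNF receptors Tnfrsf1a and Tnfrsf1b, or is held at the cell surface by lymphotoxin beta in a heterotrimer that binds the lymphotoxin beta receptor Ltbr, a signal needed to form lymph nodes and follicular networks. TNF binds Tnfrsf1a and Tnfrsf1b and drives inflammation. RANKL binds RANK (Tnfrsf11a) to start osteoclast formation and lymph node development, and the soluble decoy osteoprotegerin (Tnfrsf11b) blocks it; B-lineage cells are among its sources in bone marrow.

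In the RefSeq gene table of GRCm38.p6, Lst1, Ltb, Tnf, Lta and Nfkbil1 follow each other in this order on chromosome 17 without overlapping, while Tnfsf11 lies on chromosome 14 between Fam216b and Akap11. The promoter windows of the 4 genes are shown because 3 of them changed together across the libraries and Ltb, a neighbour of Tnf, did not. Each window runs from 250 bases before to 50 bases after the start in the RefSeq promoter table of GRCm38.p6, 5′ to 3′ on the gene's strand, and capitals mark the matches described after them.
Lta, chr17:35205302-35205601, minus strand: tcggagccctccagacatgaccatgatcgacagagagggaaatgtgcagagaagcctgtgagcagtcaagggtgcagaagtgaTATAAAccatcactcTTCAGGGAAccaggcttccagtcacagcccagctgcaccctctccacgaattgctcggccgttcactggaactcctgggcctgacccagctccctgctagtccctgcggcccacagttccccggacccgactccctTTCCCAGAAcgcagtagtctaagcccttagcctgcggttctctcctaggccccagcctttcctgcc
Ltb, chr17:35194257-35194556, plus strand: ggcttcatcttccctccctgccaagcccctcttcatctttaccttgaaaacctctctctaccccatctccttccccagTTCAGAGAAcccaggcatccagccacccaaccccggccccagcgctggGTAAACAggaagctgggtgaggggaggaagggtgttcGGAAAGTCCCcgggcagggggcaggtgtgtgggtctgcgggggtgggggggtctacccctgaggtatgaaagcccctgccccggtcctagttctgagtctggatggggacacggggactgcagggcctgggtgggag
Tnf, chr17:35201958-35202257, minus strand: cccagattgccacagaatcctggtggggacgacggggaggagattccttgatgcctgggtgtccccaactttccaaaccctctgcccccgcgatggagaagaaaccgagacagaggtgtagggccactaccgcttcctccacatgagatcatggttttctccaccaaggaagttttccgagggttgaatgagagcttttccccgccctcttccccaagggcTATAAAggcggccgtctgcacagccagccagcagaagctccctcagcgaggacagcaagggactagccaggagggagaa
Tnfsf11, chr14:78307994-78308293, minus strand: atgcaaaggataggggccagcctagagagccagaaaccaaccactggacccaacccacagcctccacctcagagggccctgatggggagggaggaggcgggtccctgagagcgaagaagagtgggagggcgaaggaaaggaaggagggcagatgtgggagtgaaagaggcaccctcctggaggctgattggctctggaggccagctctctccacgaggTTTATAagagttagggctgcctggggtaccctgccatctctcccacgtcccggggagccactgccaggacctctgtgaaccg
The capitals mark 5 letter patterns searched on both strands and chosen with the sequences in view: TTCNNNGAA for STAT factors, GGG and TTTCC with any 2 bases between them for NF-kB, GTAAACA for FOXO, TGANTCA for AP-1 and TATAAA for a TATA box. The STAT pattern began at -152 and -16 in the Lta window and at -172 in the Ltb window, counted from the start, and was not found in the Tnf or Tnfsf11 window; 8.3% of all 32851 windows in the table held it. The NF-kB pattern was in the Ltb window alone among the 4, at -87 on the reverse strand (1.6% of all windows), and so was the FOXO pattern at -124 (3.6%). TATAAA began at -29 in the Tnf window, at -32 on the reverse strand in the Tnfsf11 window and at -167 in the Lta window (13.6% of all windows). The AP-1 pattern was in none of the 4 windows (7.8% of all windows). Matches are descriptions of these letters, and binding was not measured.

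Total counts ran from 17257914 to 50235192 per library. Cxcr4 was at 37.2 and 409 CPM (counts scaled to the TMM-adjusted library total) in replicates 1 and 2 of sorted cells labelled CXCR4-/-, against 943 and 922 CPM in wild type, so replicate 2 goes against its label in part. In culture Cxcr4 was 114 to 137 CPM in the CXCR4-/- libraries and 112 to 322 CPM in the sufficient ones. Of the sufficient libraries, only those with IL-7 alone, at 113 and 112 CPM, were as low, and no CXCR4-/- culture had that medium. With neither factor Cxcr4 was 114 and 130 CPM in CXCR4-/- cultures and 169 and 171 CPM in sufficient ones. With CXCL12 alone it was 136.9 and 132.5 CPM, against 236.6 and 225.6 CPM. Cxcr4 was thus lower but not absent in CXCR4-/- cultures of the same medium. Reads from an undeleted part of the gene would be counted. The 4 libraries with the ERK inhibitor or with both factors stood apart with Gapdh at 1399 to 1730 CPM, against at most 12.3 CPM in the other 14. The CXCR4-/- cultures lacked many markers of other cells that the sufficient cultures held: the 12 myeloid markers summed to 12.1 to 18.2 CPM there and to at least 161 CPM in every sufficient culture. A comparison between such sets of libraries cannot be told apart from the difference between the sets, and this applies wherever ERK-inhibited or CXCR4-/- cultures are set against the sufficient culture with CXCL12, or sorted cells against culture. All 10 B-lineage markers were detected in every group, summing to 4090 to 10300 CPM. Replicate 1 of the CXCR4-/- culture without factors stood far from replicate 2, with a chi-square of 265 per gene between their counts, against 44.7 in sorted CXCR4-/- cells and 1.34 to 12.2 in the other 7 groups. The closest pairs, at 1.34 and 1.48, were the sufficient cultures without IL-7, with and without CXCL12.

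Lta, the soluble lymphotoxin chain, had the widest range of group means among the 4. It was at 1.06 and 1.21 CPM with CXCL12 without IL-7, 4.61 and 4.39 CPM with neither factor and 50.01 and 48.1 CPM with IL-7. It stood at 6.55 and 7.56 CPM with the ERK inhibitor and at 51.4 and 44.6 CPM with IL-7 and CXCL12. Lta was therefore high in both media with IL-7, whose libraries overlapped, and low in all 3 sufficient media without it. CXCR4-/- cultures without IL-7 held 81.2 and 76.0 CPM with CXCL12 and 140 and 88.7 CPM without it, above every sufficient library. Sorted CXCR4-/- cells had 0 and 0.399 CPM, against 0.708 and 0.602 CPM in sorted wild type. These rest on 0 and 11 counts in sorted CXCR4-/- cells and 14 and 11 in wild type; 0 counts allow a level of up to 0.0909 CPM (3 counts, covering counting error only). Sorted cells thus lay below all cultures.

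Ltb, the membrane chain that holds lymphotoxin alpha on the cell, followed another order. It was highest in sorted cells of 1 genotype, with 20.02 and 24.6 CPM in CXCR4-/- cells, against 86.2 and 101 CPM in wild type. It was 40.8 and 40.8 CPM with CXCL12 without IL-7, 15.2 and 14.4 CPM with neither factor and 23.0 and 21.2 CPM with IL-7. Both libraries with CXCL12 alone lay above all other sufficient cultures. Ltb was 10.9 and 11.7 CPM with the ERK inhibitor, its lowest group, and 14.8 and 15.1 CPM with both factors. CXCR4-/- cultures had 39.2 and 34.3 CPM with CXCL12 and 93.3 and 44.7 CPM without it, the higher value being that of the replicate that stood apart. Neighbouring groups in the order of means overlapped for sorted wild type and CXCR4-/- cultures without factors, for sorted CXCR4-/- cells and cultures with IL-7, and for cultures with both factors and with neither.

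Tnf, the inflammatory cytokine, was 1.26 and 1.27 CPM with CXCL12 without IL-7, 4.14 and 4.42 CPM with neither factor and 13.2 and 13.6 CPM with IL-7. It was 6.26 and 7.02 CPM with the ERK inhibitor and 19.9 and 18.5 CPM with both factors. As for Lta, the media with IL-7 were the high ones among sufficient cultures, but here both factors lay above IL-7 alone without overlap. CXCR4-/- cultures held 21.7 and 20.6 CPM with CXCL12 and 25.9 and 24.2 CPM without it, and sorted cells 2.36 and 1.12 CPM in CXCR4-/-, against 1.97 and 2.41 CPM in wild type. The sorted groups overlapped each other, and sorted CXCR4-/- cells also overlapped the culture with CXCL12 alone.

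Tnfsf11, which encodes RANKL, was 0.710 and 0.826 CPM with CXCL12 without IL-7, 4.70 and 5.15 CPM with neither factor and 20.2 and 21.6 CPM with IL-7. It was 6.59 and 5.31 CPM with the ERK inhibitor and 13.9 and 13.9 CPM with both factors. Its order was that of Lta in all 9 groups, with no overlap between neighbours. CXCR4-/- cultures had 28.2 and 27.0 CPM with CXCL12 and 32.1 and 34.4 CPM without it. Sorted CXCR4-/- cells had 0.182 and 0.0725 CPM, from 6 and 2 counts, against 0.657 and 0.602 CPM in wild type, from 13 and 11 counts. In these bulk libraries, fewer cells expressing a gene and less RNA per cell cannot be told apart.

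**Figure D1:**
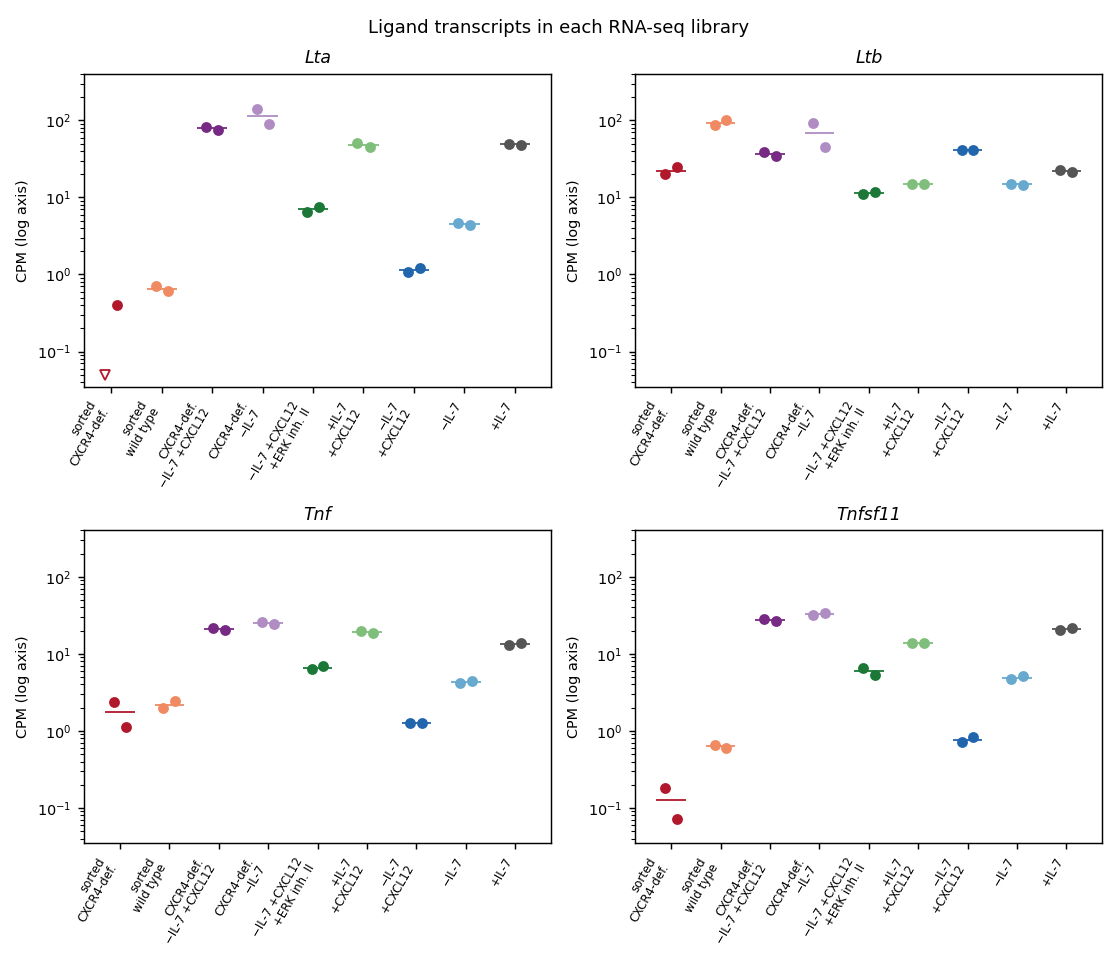
Level of each ligand gene in every library, in CPM on a log axis, by group, with the group mean as a line (n = 2 libraries). The open triangle marks a library with 0 counts, drawn at a fixed height with no mean for its group. Lta, Tnf and Tnfsf11 are high in both media with IL-7 and in CXCR4-/- cultures and low with CXCL12 alone, while Ltb is 40.8 CPM in both libraries with CXCL12 alone.

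Over the 18 libraries the log2 CPM of Lta and Tnfsf11 had a Pearson r of 0.97 (Spearman rho 0.98), that of Lta and Tnf 0.92 (0.94) and that of Tnf and Tnfsf11 0.94 (0.94). Ltb had an r of -0.06 with Lta, -0.11 with Tnf and -0.13 with Tnfsf11. These are descriptions: the 18 points share groups, library sets and scaling, and Lta and Tnfsf11 were chosen for falling together on IL-7 loss. The 3 genes closest to Lta by Pearson r among 12122 genes with a mean of at least 1 CPM were Wdr43 (0.985), Bdh1 (0.981) and Cirh1a (0.980). For Ltb they were Slc15a4 (0.964), Asf1a (0.920) and Dedd (0.912), for Tnf Itpripl1 (0.986), Pwp1 (0.985) and Ifrd2 (0.984), and for Tnfsf11 Cops2 (0.987), Spcs3 (0.986) and Zfp239 (0.983). By Spearman rho, Slc15a4 was the only 1 of these 12 genes among the 3 closest to its member.

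**Figure D2:**
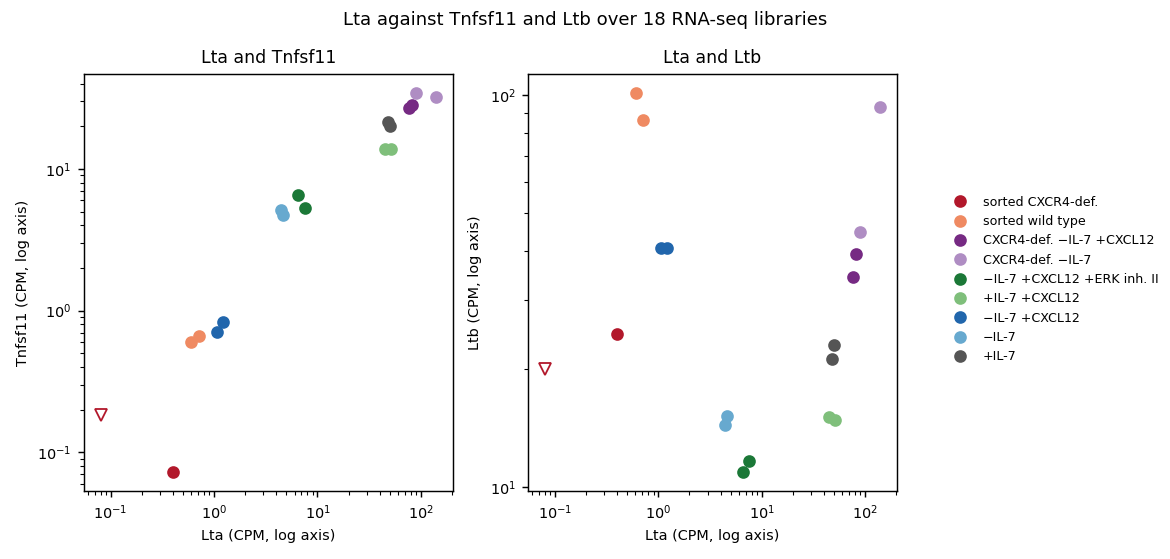
Lta against Tnfsf11 (left) and against Ltb (right) in 18 libraries, in CPM on log axes, coloured by group. Each point is a library, and the open triangle is the library with 0 Lta counts at a fixed place on the Lta axis. Lta and Tnfsf11 lie along a line (r 0.97), whereas Lta and Ltb do not (r -0.06).

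Loss of IL-7, the comparison that chose Lta and Tnfsf11, is described without a test. Calls only set which genes enter the ranking given here, and are no support for the 4 genes. Lta was at 4.50 ± 0.155 CPM without IL-7 and 49.1 ± 1.32 CPM with it (SD, n = 2 each), a log2 change of -3.44 ± 0.34 (SE). It was the second largest of the 799 falls among genes called at an adjusted p under 0.05 whose mean log2 CPM was 3 or more, and Tnfsf11 (-2.08 ± 0.15) was at rank 9. Nov at -2.16 and Tubb3 at -2.08 stood just before and after Tnfsf11, and Gm266 (-2.06) and Bcl2 (-1.88) came next. Tnf differed by -1.65 ± 0.21 and was at rank 20, while Ltb differed by -0.58 ± 0.25 and was not among these falls. Over all genes, 11.8% were called in this comparison, 6.23% as lower and 5.6% as higher, from which nothing is read about the 4 genes. Marker sums differed here too. The 9 T cell markers measured summed to 114 to 117 CPM without IL-7 and 150 to 151 CPM with it (1 called lower). The myeloid sum was 296 to 297 CPM and 161 to 215 CPM (0 called). The stromal or bone sum was 949 to 962 CPM and 562 to 838 CPM (1 of 11 lower). The mature B cell sum was 579 to 591 CPM and 391 to 437 CPM (2 of 7 higher). With CXCL12 alone set against IL-7 alone, the log2 changes were -5.45 ± 0.40 for Lta, -4.79 ± 0.19 for Tnfsf11, -3.40 ± 0.25 for Tnf and 0.88 ± 0.25 for Ltb. In the same comparison the 12 myeloid markers summed to 748 to 750 CPM with CXCL12 alone and 161 to 215 CPM with IL-7, and the 12 stromal or bone markers, of which 11 had counts and Lum had none, to 1860 to 1890 CPM and 562 to 838 CPM. The 7 mature B cell markers summed to 881 to 906 CPM with CXCL12 alone and 391 to 437 CPM with IL-7. The part of these markers in the 4 genes' values was not tested.

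CXCL12 added to cultures without IL-7 went with lower Lta, Tnf and Tnfsf11 and higher Ltb. This comparison shares its libraries with neither factor with the one that chose the genes, so it too is a description. Lta had 1.14 ± 0.103 CPM with CXCL12 and 4.50 ± 0.155 CPM without it, a log2 change of -2.01 ± 0.39. Tnf differed by -1.75 ± 0.25 and Tnfsf11 by -2.71 ± 0.19, each with both CXCL12 libraries below both others. Ltb differed by 1.47 ± 0.25 the other way, with 40.8 ± 0.0187 CPM with CXCL12 and 14.8 ± 0.554 CPM without (SD, n = 2 each), again without overlap. The T cell marker sum, of 9 markers measured, was 45.5 to 45.6 CPM with CXCL12 and 114 to 117 CPM without, mostly from Lck and Thy1, while Cd3e was at most 0.0887 CPM with CXCL12 and 0.130 CPM without. Marker lists of other cells moved with the higher Ltb, beside 17.3% of all genes that rose and 13.2% that fell. The mature B cell sum was 881 to 906 CPM with CXCL12 and 579 to 591 CPM without (4 of 7 called higher). Most of it was H2-Ob, at 446 to 456 CPM with CXCL12 and 300 to 306 CPM without, Ighd and Cd22. Fcer2a was at most 1.27 CPM with CXCL12 and 0.477 CPM without. The myeloid sum was 748 to 750 CPM with CXCL12 and 296 to 297 CPM without (4 of 12 higher). The stromal or bone sum was 1860 to 1890 CPM and 949 to 962 CPM (6 of 11 higher, 1 lower). The part of these markers in the 4 genes' values was not tested.

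Removing IL-7 while ERK inhibitor II was added, with CXCL12 in both media, gave lower Lta, Tnf and Tnfsf11 in libraries that played no part in choosing the genes. IL-7 and the inhibitor change together here and cannot be told apart. Of the 4 genes, 3 fell, beside 4.54% of all genes tested that fell, 6.5% that rose and 11% called in either direction. Lta was at 7.06 ± 0.718 CPM with the inhibitor without IL-7 and 48.0 ± 4.76 CPM with both factors (SD, n = 2 each), 6.80-fold lower, a log2 change of -2.76 ± 0.33 with an adjusted p of 0.00024 by edgeR's quasi-likelihood test. Tnf fell by 1.53 ± 0.21 on the log2 scale (adjusted p = 0.00065) and Tnfsf11 by 1.22 ± 0.15 (adjusted p = 0.00028), with no overlap between the groups for either. Ltb had a log2 change of -0.41 ± 0.25 that did not pass the test (adjusted p = 0.40), although both inhibitor libraries lay below both others. With the 2 groups fitted alone it passed, at -0.38 and an adjusted p of 0.00089. The 12 myeloid markers summed to 3390 to 3450 CPM with the inhibitor and 1710 to 1850 CPM with both factors, and Cd3e was 7.89 to 8.00 CPM and 7.51 to 8.17 CPM. Of the myeloid markers 5 of 12 were called higher, and of the stromal or bone markers 7 of 11, although the stromal or bone sum was 206 to 216 CPM with the inhibitor and 204 to 217 CPM with both factors. Most of that sum was Alpl, at 160 to 167 CPM with the inhibitor and 189 to 203 CPM with both factors. Col1a1 was at 13.3 to 13.6 CPM with the inhibitor and 2.96 to 3.14 CPM with both factors. The part of these markers in the falls was not tested.

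Set against CXCL12 without IL-7 and without inhibitor, ERK inhibitor II went with higher Lta, Tnf and Tnfsf11 and lower Ltb. The 3 rises stood beside 26.9% of all genes that rose and the fall of Ltb beside 30% that fell, and 56.9% of genes were called in all. Lta averaged 7.06 ± 0.718 CPM with the inhibitor and 1.14 ± 0.103 CPM without it (SD, n = 2 each), a log2 change of 2.65 ± 0.39 (adjusted p = 9.7e-05). Tnf rose by 2.39 ± 0.25 (adjusted p = 5e-06) and Tnfsf11 by 2.98 ± 0.19 (adjusted p = 7.4e-08) on the log2 scale. Ltb fell to 11.3 ± 0.515 CPM with the inhibitor, against 40.8 ± 0.0187 CPM without it, a log2 change of -1.85 ± 0.25 (adjusted p = 5.4e-05). For each of the 4 genes the groups did not overlap. The share of all genes without overlap was not counted, and nothing is read from this. The 2 groups belong to library sets that stand apart: the myeloid markers summed to 3390 to 3450 CPM with the inhibitor and 748 to 750 CPM without, and Cd3e, at 7.89 to 8.00 CPM with the inhibitor, was at most 0.0887 CPM without it. Of the markers tested, 8 of 12 myeloid, 8 of 9 T cell and 7 of 8 NK cell markers were called higher. Mature B cell markers moved with the fall of Ltb, summing to 231 to 238 CPM with the inhibitor and 881 to 906 CPM without it (6 of 7 called lower), and so did stromal or bone markers, at 206 to 216 CPM and 1860 to 1890 CPM (9 of 11 lower). The part of any of these in the 4 genes' changes was not tested.

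CXCR4-/- cultures with CXCL12 held far more Lta, Tnf and Tnfsf11 than sufficient cultures in the same medium, while Ltb did not pass the test. Again 3 of the 4 rose, beside 27.3% of all genes that rose and 35.7% that fell, 63% being called in either direction. Lta was at 78.6 ± 3.70 CPM in CXCR4-/- cultures and 1.14 ± 0.103 CPM in sufficient ones (SD, n = 2 each), a log2 change of 6.13 ± 0.41 (adjusted p = 9e-08). Tnfsf11 was 36.6-fold higher (5.19 ± 0.19 on the log2 scale, adjusted p = 1.2e-09) and Tnf 16.7-fold higher (4.06 ± 0.25, adjusted p = 4.9e-08). Ltb, at 36.8 ± 3.47 CPM in CXCR4-/- cultures and 40.8 ± 0.0187 CPM in sufficient ones, had a log2 change of -0.15 ± 0.25 (adjusted p = 0.61), which does not show that its levels are alike. The T cell markers went both ways, with 2 of 9 called higher and 5 lower, and summed to 170 to 176 CPM in CXCR4-/- cultures and 45.5 to 45.6 CPM in sufficient ones. The higher sum came from Lck, at 84.3 to 89.7 CPM in CXCR4-/- and 27.8 to 30.3 CPM in sufficient cultures, and Thy1, at 85.0 to 85.4 CPM and 5.08 to 5.89 CPM. Cd3e, Cd3d and Cd3g, which define T cells, were at 0 in both CXCR4-/- libraries and at most 0.22 CPM in the sufficient ones. All 12 myeloid markers fell in the CXCR4-/- cultures, where S100a8, Elane, Camp and Cd14 had no count. All 7 mature B cell markers fell too (266 to 280 CPM in CXCR4-/- and 881 to 906 CPM in sufficient cultures), as did 9 of 11 stromal or bone markers (201 to 223 CPM and 1860 to 1890 CPM). The stromal or bone sum in CXCR4-/- cultures was nearly all Alpl, at 199 to 222 CPM, against 89.9 to 95.4 CPM in sufficient ones. Col1a1 was at most 0.301 CPM in CXCR4-/- cultures and 482 to 486 CPM in sufficient ones. The part of Lck, Thy1 and the other markers in the rises was not tested. Cell stage as labelled, small pre-B in the CXCR4-/- cultures and mostly pre-B in the others, goes with genotype too.

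Within CXCR4-/- cultures without IL-7, CXCL12 went with lower Ltb, by an amount that rested largely on 1 library. Replicate 1 without CXCL12 was the library that stood apart. Ltb was 36.8 ± 3.47 CPM with CXCL12 and 69.0 ± 34.4 CPM without it (SD, n = 2 each), a log2 change of -0.91 ± 0.25 (adjusted p = 0.022), and 1 of 4 fell beside 21% of all genes that fell and 33.8% called in either direction. Where a library is left out, 1 remains in its group, and the test takes the spread from the other groups and assumes that the lone library varies like them. Without the replicate that stood apart the change was -0.27 (adjusted p = 0.18), and 1250 genes were called in place of 5020. Without replicate 1 or replicate 2 with CXCL12 the change of Ltb stayed about as large, at -1.01 and -0.81, but missed the threshold (adjusted p = 0.059 and 0.17). Lta had a change of -0.54 ± 0.30 (adjusted p = 0.18), Tnf -0.24 ± 0.21 (adjusted p = 0.39) and Tnfsf11 -0.27 ± 0.14 (adjusted p = 0.17). For each of the 4 genes both CXCL12 libraries lay below both others, a count made without the share of all genes that did so. Without the replicate that stood apart these became -0.16 for Lta, -0.18 for Tnf and -0.30 for Tnfsf11, with adjusted p of 0.72, 0.69 and 0.23. Without replicate 2 in its place, Lta was at -0.83 (adjusted p = 0.0025), a value that sets the CXCL12 libraries against the replicate that stood apart alone. B-lineage markers differed as well, with 4 of 10 called lower and sums of 4390 to 4710 CPM with CXCL12 and 5090 to 8300 CPM without.

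In sorted small pre-B cells, Ltb and Tnfsf11 were lower in CXCR4-/- cells. These 2 of the 4 fell beside 17.6% of all genes that fell, with 34.2% called in either direction. Ltb was at 22.3 ± 3.20 CPM in CXCR4-/- cells and 93.7 ± 10.6 CPM in wild type (SD, n = 2 each), 4.21-fold lower, a log2 change of -2.07 ± 0.25 (adjusted p = 5.9e-05). Tnfsf11 fell by 2.23 ± 0.34 on the log2 scale (adjusted p = 0.00032) at levels under 1 CPM in all 4 libraries. With the 2 groups fitted alone by edgeR the SE of Tnfsf11 was larger, at -2.2 ± 0.7 (adjusted p = 0.047). Lta, with 0 and 11 counts in CXCR4-/- cells, had a fitted change of -1.82 ± 0.74 that did not pass (adjusted p = 0.078) and did by DESeq2 (-1.90, adjusted p = 0.0034). Tnf had a change of -0.31 ± 0.26 with overlapping groups (adjusted p = 0.40). Without replicate 2, the library that goes against its label in part, Ltb changed by -2.23 (adjusted p = 0.00053) and Tnfsf11 by -1.78 (adjusted p = 0.013); without replicate 1 Tnfsf11 changed by -3.07 (adjusted p = 0.00084). In these fits too, CXCR4-/- cells are 1 library and the spread comes from the other groups. Without replicate 2, Lta has only the 0 counts of replicate 1. Its fitted change of -7.50 there is no measure of the size of the difference. Tnf had a change of 0.11 without replicate 2 (adjusted p = 0.75) and of -0.97 without replicate 1 (adjusted p = 0.0053). Markers of mature B cells moved with these falls: 6 of 7 fell, and they summed to 597 to 723 CPM in CXCR4-/- cells and 1270 to 1340 CPM in wild type. The myeloid markers summed to 1080 to 6150 CPM and 4890 to 4940 CPM, and 9 T cell markers to 36.0 to 43.7 CPM and 48.5 to 50.6 CPM, with 4 of the 9 called lower. The plasma cell markers summed to 188 to 199 CPM in CXCR4-/- cells and 550 to 570 CPM in wild type (3 of 5 lower), and the NK cell markers to 10.4 to 25.7 CPM and 24.7 to 27.2 CPM (3 of 8 lower). The part of these markers in the changes of Ltb and Tnfsf11 was not tested.

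Sorted wild-type cells were also set against the culture with CXCL12 without IL-7. Ltb and Tnf rose, 2 of 4, beside 23.8% of all genes that rose, 27.6% that fell and 51.4% called in either direction. Ltb averaged 93.7 ± 10.6 CPM in sorted cells and 40.8 ± 0.0187 CPM in culture (SD, n = 2 each), a log2 change of 1.2 ± 0.25 (adjusted p = 0.0014). Tnf had 2.19 ± 0.310 CPM in sorted cells and 1.26 ± 0.00117 CPM in culture, a log2 change of 0.79 ± 0.27 (adjusted p = 0.029), and its call was lost in 5 of 12 alternatives, at adjusted p of 0.057 to 0.16, among them those without either culture library or without sorted replicate 2. Lta (-0.77 ± 0.54, adjusted p = 0.27) and Tnfsf11 (-0.25 ± 0.25, adjusted p = 0.60) did not pass; Lta did when the 2 groups were fitted alone (adjusted p = 0.038). All 4 genes lay without overlap between the groups. How many of all genes did so was not counted, so nothing is read from this. Here the mature B cell markers summed to 1270 to 1340 CPM in sorted cells and 881 to 906 CPM in culture, with 6 of 7 called higher. The myeloid sum was 4890 to 4940 CPM in sorted cells and 748 to 750 CPM in culture (7 of 12 higher, 3 lower), the NK cell sum 24.7 to 27.2 CPM and 2.15 to 2.53 CPM (6 of 8 higher), and the plasma cell sum 550 to 570 CPM and 141 to 146 CPM (5 of 5 higher). The stromal or bone sum was 32.2 to 33.7 CPM in sorted cells and 1860 to 1890 CPM in culture (10 of 11 lower). The part of these markers in the rises of Ltb and Tnf was not tested.

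**Figure D3:**
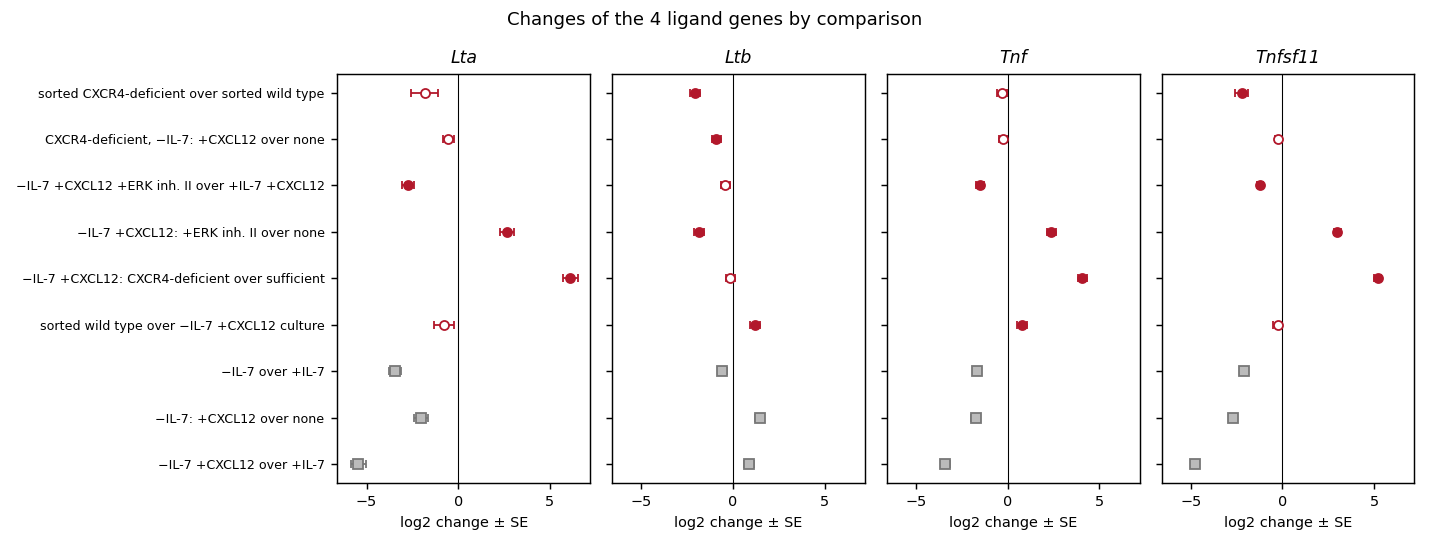
Log2 change ± SE of each ligand gene in 9 comparisons of 2 libraries with 2, group named first over group named second. Filled circles were called at an adjusted p under 0.05 by edgeR's quasi-likelihood test, open circles were not, and grey squares were not tested. Lta, Tnf and Tnfsf11 lie right of 0 with the ERK inhibitor over CXCL12 alone (2.65, 2.39 and 2.98), where Ltb lies left of it (-1.85).

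The receptors were measured in the same libraries. Ltbr, the receptor of the lymphotoxin heterotrimer, was at 29.9 and 29.0 CPM with CXCL12 without IL-7, 12.6 and 11.4 CPM with neither factor and 6.31 and 9.64 CPM with IL-7. Ltbr rose with CXCL12 in the sufficient cultures without IL-7 (log2 change 1.30 ± 0.40, adjusted p = 0.030), where Lta was lower and Ltb higher. In CXCR4-/- cultures Ltbr had 0 and 1 counts with CXCL12 and 0 and 0 without it, so the receptor transcript was near its limit of detection in the cultures with the most Lta. Ltbr is also known from stromal and myeloid cells, whose markers moved with it: the stromal or bone sum was 1860 to 1890 CPM with CXCL12 and 949 to 962 CPM without. Whether those cells set the level of Ltbr was not tested.

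Tnfrsf1b, the TNF receptor found mainly on immune cells, was at 157 and 153 CPM with CXCL12 and 86.9 and 87.7 CPM with neither factor, a log2 change of 0.83 ± 0.13 (adjusted p = 0.00071). In the comparison of ERK inhibitor II without IL-7 with both factors it rose by 0.85 ± 0.13 on the log2 scale (adjusted p = 0.0015), at 169 and 172 CPM with the inhibitor and 94.4 and 93.9 CPM with both factors, while Lta and Tnf fell. CXCR4-/- cultures held it at 69.7 to 75.5 CPM in all 4 libraries. Tnfrsf1a, the more widely expressed TNF receptor, was at 40.2 and 37.3 CPM with CXCL12 and 19.0 and 18.3 CPM with neither factor (1.06 ± 0.49, adjusted p = 0.12), and at 0.619 to 1.22 CPM in the 4 CXCR4-/- cultures. With CXCL12 the CXCR4-/- cultures were lower in Tnfrsf1a by 5.18 ± 0.64 on the log2 scale than the sufficient ones (adjusted p = 1.7e-05). The myeloid markers summed to 12.1 to 12.9 CPM in those CXCR4-/- cultures and 748 to 750 CPM in the sufficient ones. They summed to 3390 to 3450 CPM with the inhibitor and 1710 to 1850 CPM with both factors, where Tnfrsf1b rose. The part of myeloid or other cells in the values of both receptors was not tested.

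RANK, from Tnfrsf11a, was at 6.74 and 6.33 CPM with CXCL12 without IL-7, 3.68 and 4.17 CPM with neither factor and 6.33 and 6.47 CPM with IL-7, and no change of it passed among these media. CXCR4-/- cultures with CXCL12 had 5.92 and 5.77 CPM, a log2 change of -0.16 ± 0.35 from the sufficient ones (adjusted p = 0.70), beside the higher Tnfsf11 there. In sorted cells it was 0.333 and 0 CPM in CXCR4-/- cells, against 0.202 and 0.438 CPM in wild type. Osteoprotegerin, from Tnfrsf11b, was at 18.9 and 17.2 CPM with CXCL12 without IL-7, 10.1 and 9.42 CPM with neither factor and 4.395 and 7.89 CPM with IL-7, the reverse order to Tnfsf11. It had 0 counts in all 4 sorted libraries and at most 2 in any CXCR4-/- culture. Osteoprotegerin is made by stromal and bone cells among others, and its order over these media is that of the stromal or bone marker sum, 1860 to 1890, 949 to 962 and 562 to 838 CPM; their part in it was not tested.

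**Figure D4:**
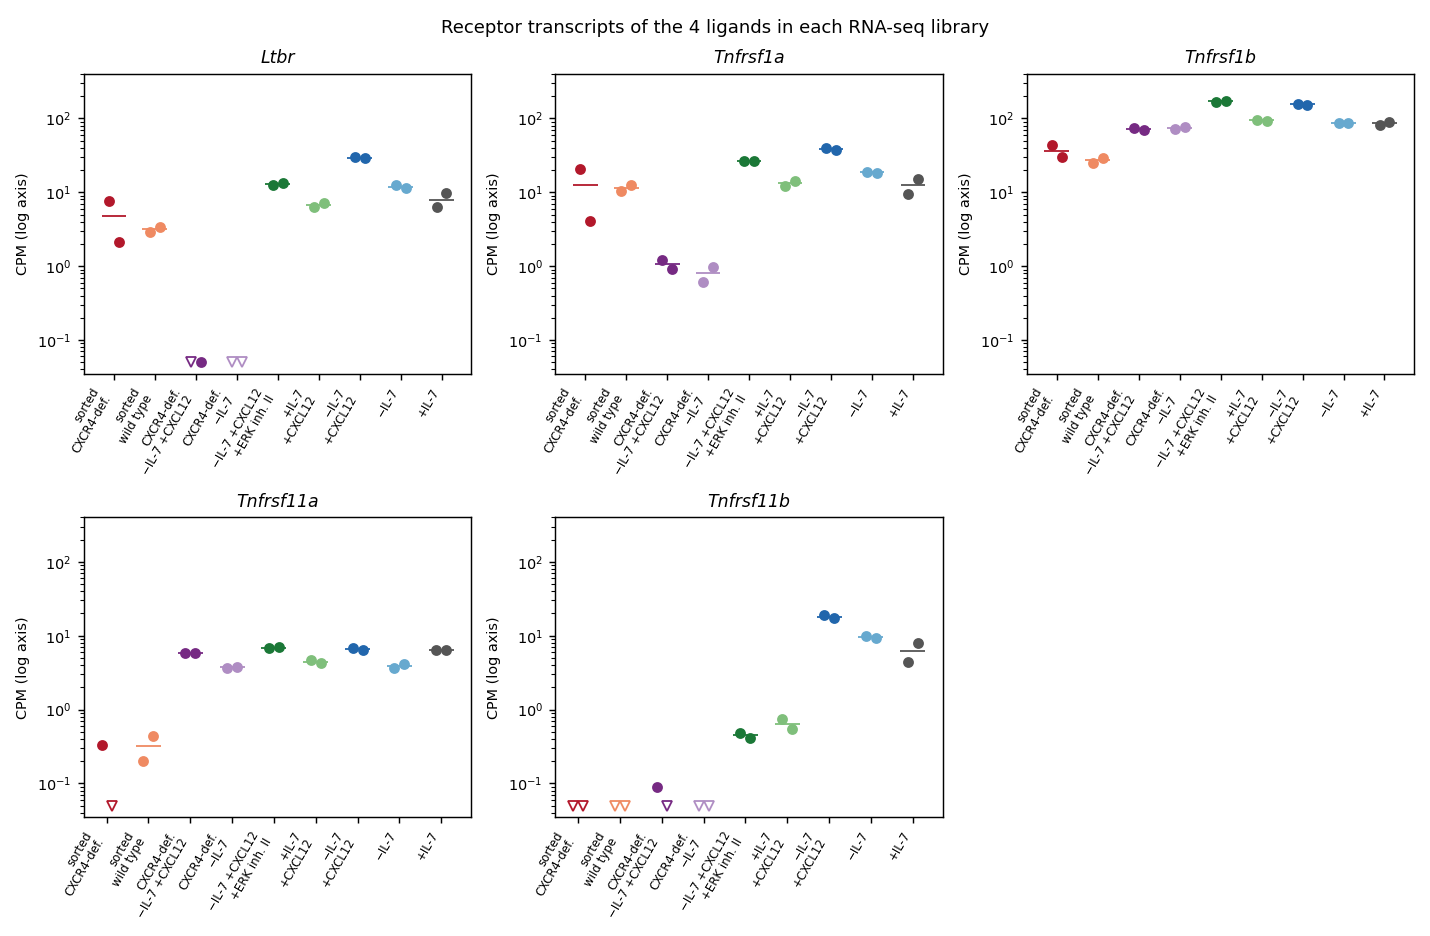
Level of the 5 receptors of these ligands in every library, in CPM on a log axis, by group, with the group mean as a line (n = 2 libraries). Open triangles mark libraries with 0 counts, drawn at a fixed height, and groups with such a library have no mean. Ltbr is at or near 0 in all 4 CXCR4-/- cultures, and Tnfrsf11b is at 0 in all 4 sorted libraries.

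Of 14 other TNF superfamily ligands, 11 were tested. In the media comparisons in which Lta, Tnf and Tnfsf11 were lower without IL-7, the share of them called was near that of all genes. On IL-7 loss edgeR and DESeq2 called 0, beside 11.8% of all genes by edgeR, and 1 was higher and 1 lower at an unadjusted p under 0.05; their median log2 change was 0.07. With the inhibitor over both factors 1 rose and 0 fell by either tool, beside 6.5% and 4.54% of all genes by edgeR, with 2 higher and 0 lower at an unadjusted p under 0.05 and a median of -0.06. With the ERK inhibitor over CXCL12 alone, 7 rose and 1 fell, beside 26.9% and 30% of all genes, with a median log2 change of 1.87 beside -0.02 over all genes. Tnfsf10, which encodes the death ligand TRAIL, rose by 1.87 ± 0.30 (adjusted p = 0.00018) and Tnfsf4, the OX40 ligand, by 3.58 ± 0.56 (adjusted p = 0.00017) on the log2 scale, as Lta did; Eda fell by 2.73 ± 0.37 (adjusted p = 5.3e-05), as Ltb did. In CXCR4-/- cultures with CXCL12 over sufficient ones, 4 rose and 3 fell, beside 27.3% and 35.7% of all genes, which is near that background, with a median of -2.14 beside -0.14 over all genes. Tnfsf10 rose there by 2.00 ± 0.30 (adjusted p = 9e-05). On CXCL12 without IL-7, 2 rose and 3 fell, beside 17.3% and 13.2% of all genes. Tnfsf8, the CD30 ligand, stood at 0.541 ± 0.169 CPM with CXCL12 and 3.35 ± 0.140 CPM without (adjusted p = 0.019). With CXCL12 alone over IL-7 alone, 2 rose and 3 fell, beside 29.8% and 21.5% of all genes, with a median of 0.09. Tnfsf8 changed there by -4.06 ± 0.76 (adjusted p = 0.00082) and Tnfsf4 by -3.45 ± 0.57 (adjusted p = 0.00032), the direction of Lta. Tnfsf12 (2.13 ± 0.38, adjusted p = 0.00074) and Eda (1.98 ± 0.35, adjusted p = 0.00059) went the other way.

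Receptors and signalling partners of the family were counted as lists. On CXCL12 without IL-7, 9 of 23 tested receptors rose, with Cd40, the B cell costimulatory receptor, at 18.4 ± 1.49 CPM with CXCL12 and 5.23 ± 0.597 CPM without (SD, n = 2 each; log2 change 1.82 ± 0.21, adjusted p = 5.7e-05), beside 17.3% of all genes that rose and 30.6% called. Cd40 is also 1 of the 7 mature B cell markers. Of 26 adaptors and kinases, 7 rose and 2 fell, beside 17.3% and 13.2% of all genes, a share called that is near the background. Birc3, a ubiquitin ligase induced by NF-kB, rose by 1.25 ± 0.09 (adjusted p = 9.8e-07) and Tnfaip3, the NF-kB inhibitor A20, by 1.05 ± 0.19 (adjusted p = 0.0013) on the log2 scale, in the direction of Ltb. With the ERK inhibitor over CXCL12 alone, 12 of the 26 fell and 4 rose, beside 30% and 26.9% of all genes, again near the background in all. Birc3 fell by 1.89 ± 0.09 (adjusted p = 9.8e-09) and Tnfaip3 by 1.81 ± 0.19 (adjusted p = 6e-06), again the direction of Ltb. In sorted CXCR4-/- cells 9 of the 26 fell and 7 rose, beside 17.6% and 16.6% of all genes. Birc3 fell there by a log2 change of -0.67 ± 0.09 (adjusted p = 1e-04) beside the fall of Ltb. Birc3 also rose with CXCL12 alone over IL-7 alone (1.62 ± 0.09, adjusted p = 6.1e-08), the direction of Ltb. Other comparisons did not follow Ltb. In CXCR4-/- over sufficient cultures with CXCL12, Birc3 changed by -2.09 ± 0.09 (adjusted p = 3.7e-09) and Tnfaip3 by -1.96 ± 0.19 (adjusted p = 2.5e-06). Ltb was at -0.15 there and did not pass. On IL-7 loss Birc3 rose by 0.37 ± 0.09 (adjusted p = 0.017), while Ltb was at -0.58. Birc3 averaged 254.6 CPM in sorted wild-type cells and 252.3 CPM in the culture with CXCL12 alone, while Ltb was higher in the sorted cells.

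Genes that act on the release of these ligands or on the stability of their mRNA were counted as a list of 12, all tested. The list mixes directions of action: Timp3 inhibits the sheddase Adam17, Elavl1 stabilises AU-rich mRNA, and Mapkapk2 opposes decay through Zfp36. On CXCL12 without IL-7, 6 rose and 2 fell, beside 17.3% and 13.2% of all genes, and with CXCL12 alone set against IL-7 alone 8 rose and 2 fell, beside 29.8% and 21.5% of all genes, 51.3% being called. Timp3, which stromal cells are known to make, was among the risers in both (1.26 ± 0.22, adjusted p = 0.0013, and 2.22 ± 0.23, adjusted p = 9.4e-06), as the stromal or bone marker sum was higher. Zfp36, the protein that binds AU-rich elements of Tnf mRNA and speeds its decay, was at 197 ± 0.0780 CPM with CXCL12 alone and 81.4 ± 1.91 CPM with IL-7 (SD, n = 2 each), a log2 change of 1.27 ± 0.19 (adjusted p = 0.00017), while Tnf was lower with CXCL12. With the ERK inhibitor over CXCL12 alone, 6 of the 12 fell and 2 rose, beside 30% and 26.9% of all genes. Timp3 changed there by -3.24 ± 0.24 (adjusted p = 3.3e-07) and Zfp36 by -1.24 ± 0.19 (adjusted p = 0.00015), while Tnf was higher. In sorted wild-type cells Zfp36 was 473 ± 56.9 CPM, against 197 ± 0.0780 CPM in that culture (1.27 ± 0.19, adjusted p = 0.00015), where Tnf was higher. Adam17, the protease that sheds TNF, was called lower in sorted CXCR4-/- cells, with a log2 change of -0.32 ± 0.10 (adjusted p = 0.029).

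Genes near the 4 on chromosomes 17 and 14 were counted as a list of 11, of which 9 were tested, and some moved in the direction of a ligand gene in some comparisons. Nfkbil1, next to Lta, was between 12.6 and 14.9 CPM in all 10 sufficient cultures, over which Lta ran from 1.06 to 51.4 CPM. It changed by 0.03 ± 0.30 on the log2 scale with the ERK inhibitor over CXCL12 alone (adjusted p = 0.95) and by 0.03 ± 0.31 in CXCR4-/- over sufficient cultures with CXCL12 (adjusted p = 0.95). In sorted cells it went against Ltb, with 20.1 and 21.2 CPM in CXCR4-/- cells and 6.82 and 8.71 CPM in wild type (1.41 ± 0.32, adjusted p = 0.0045). In CXCR4-/- cultures it was called lower with CXCL12, as Ltb was, at 13.9 ± 2.03 CPM with CXCL12 and 36.6 ± 22.4 CPM without it (SD, n = 2 each; log2 change -1.40 ± 0.31, adjusted p = 0.022), the replicate that stood apart being the higher of the libraries without it, at 52.5 and 20.8 CPM. With the ERK inhibitor over CXCL12 alone 1 of the 9 rose and 3 fell, beside 26.9% and 30% of all genes. Aif1, known from macrophages, rose there by 2.53 ± 0.41 on the log2 scale (adjusted p = 2e-04), as Lta and Tnf did and as 8 of 12 myeloid markers did, and Prrc2a changed by -0.58 ± 0.11 (adjusted p = 0.00063), the direction of Ltb. In CXCR4-/- over sufficient cultures with CXCL12 Aif1 went the other way from Lta and Tnf, at 0.0251 ± 0.0355 CPM in CXCR4-/- and 0.701 ± 0.0198 CPM in sufficient cultures (SD, n = 2 each; adjusted p = 0.00061). Lst1, next to Ltb and expressed in myeloid cells, was at most 5.64 CPM in any library and passed no test. Akap11, next to Tnfsf11, was between 96.0 and 135 CPM in the sufficient cultures, with a log2 change of -0.02 ± 0.21 with the inhibitor (adjusted p = 0.96), where Tnfsf11 rose. Akap11 was called higher with CXCL12 in CXCR4-/- cultures (0.79 ± 0.21, adjusted p = 0.022), where Tnfsf11 was at -0.27 and did not pass. Akap11 was at 53.9 and 103.7 CPM there without CXCL12, the lower value being that of the replicate that stood apart. With CXCL12 it was at 124.8 and 147.3 CPM. Dgkh, also in the list, went against Tnfsf11 with the inhibitor over CXCL12 alone (-1.74 ± 0.22, adjusted p = 3.2e-05). It did so too in CXCR4-/- over sufficient cultures (-3.52 ± 0.28, adjusted p = 3.4e-07) and on CXCL12 without IL-7 (1.21 ± 0.22, adjusted p = 0.0015). In sorted wild type over culture it fell (-1.36 ± 0.23, adjusted p = 0.00037), where Tnfsf11 was at -0.25 and did not pass.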

How the data were processed

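For RNA-seq, the authors deposited raw read counts of 23762 gene symbols in 18 libraries, as 1 table with 0 columns outside these samples. Per the labels' protocols, RNA of flow-sorted B cells was made into stranded polyadenylated libraries. The submitters' processing notes name STAR and featureCounts and the mouse build mm9, and no strand setting of the counting is stated in these sources. The deposited chromatin accessibility peaks, each with a -log10 p or q value, were not analysed here, for want of an annotation of their build.

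Labels gave the groups and the replicate numbers. Replicate 2 without IL-7 carries the small pre-B code in its title, and so does the table's column of replicate 2 with CXCL12 without IL-7; both were assigned by medium and number. Counts were fitted with edgeR 4.0.16 (R 4.3.3) in 1 model of 9 group means, with TMM scaling, the default filter on low counts (14862 genes) and the robust quasi-likelihood test. Calls were made at an adjusted p (Benjamini-Hochberg, over all genes tested) under 0.05, and "rose" or "fell" is used of calls. The SE of a log2 change was derived from the change and its F statistic. The script was tested on simulated data. Correlations use log2 CPM with a prior count of 2. Totals of 17257914 to 50235192 counts set the precision. Comparisons that use the libraries behind the choice of the genes were given no test of the 4 genes. Calls did set which genes entered the ranking of falls on IL-7 loss, which only describes the choice.

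The 4 genes, the pathway and marker lists and the comparisons were chosen with earlier results of these data known. Beyond the 4 genes and Cxcr4, the text names the 5 receptors of the ligands, the genes next to them, the 3 genes most like each and up to 4 called genes of each list with the smallest p. Gapdh was added after its values were seen. Alternatives were RLE size factors, no filter or at least 1 CPM in 2 libraries, DESeq2 1.42.0, the 2 groups alone, a replicate block, each library left out, plain CPM and Spearman correlation. Added after seeing the data were close pairs summed to 1 library, crossed replicate numbers and the omission of the 4 Gapdh-high libraries. Promoter windows come from RefSeq (GRCm38.p6), in which all 4 genes matched.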

Additional observations from a re-analysis of the deposited data

Results flagged for a closer look

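Ltb went opposite ways when CXCL12 was added without IL-7 in cells of different genotype. In CXCR4-/- cultures both CXCL12 libraries (39.2 and 34.3 CPM) lay below both without it (93.3 and 44.7 CPM), a log2 change of -0.91 ± 0.25 (SE). In sufficient cultures both CXCL12 libraries (40.8 and 40.8 CPM) lay above both without it (15.2 and 14.4 CPM), a log2 change of 1.47 ± 0.25. The CXCR4-/- change minus the sufficient change was -2.37 on the log2 scale, and this difference was not tested. The CXCR4-/- change rests largely on replicate 1 without CXCL12, whose library stood apart from its replicate. Without that library the change was -0.27. With the 2 groups fitted alone the change was -0.88 and did not pass edgeR's test (adjusted p = 0.42). The 2 genotypes belong to library sets that stand apart, so a difference between genotypes cannot be told apart from one between sets. For Lta, Tnf and Tnfsf11 both CXCL12 libraries lay below both others in either genotype, with log2 changes of -0.54, -0.24 and -0.27 in CXCR4-/- cultures and -2.01, -1.75 and -2.71 in sufficient ones. The share of all genes ordered in this way was not counted.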

How the results depend on the processing

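With 2 libraries per group the SE of the log2 change of Lta was 0.30 to 0.74, and levels under 1 CPM rest on few counts. Of the log2 changes of the 4 genes, the calls with the ERK inhibitor over CXCL12 alone and in CXCR4-/- over sufficient cultures, the rise of Ltb in sorted wild type over culture, and the falls of Ltb and Tnfsf11 in sorted CXCR4-/- cells and of Lta, Tnf and Tnfsf11 with the inhibitor over both factors, held under every alternative run for them. The labels give same-numbered replicates nothing in common but a number. The correlation of their deviations was -0.14 to 0.33, highest in CXCR4-/- cultures (0.33) and on CXCL12 without IL-7 (0.22). The replicate block left every call of the 4 genes where it was, with 5006 genes called in sorted cells, 4997 in CXCR4-/- cultures and 1536 with the inhibitor over both factors, against 5079, 5020 and 1640; crossed numbers in the last gave 1485.

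With DESeq2, Lta was called lower in sorted CXCR4-/- cells (-1.90, adjusted p = 0.0034) and with CXCL12 in CXCR4-/- cultures (-0.55, adjusted p = 0.043), and 2676 genes were called on IL-7 loss, against 1758. With the 2 groups alone, Ltb was called with the inhibitor over both factors (-0.38) and Lta in sorted wild type over culture (-0.77), and the counts were 6068 with the inhibitor over both factors, 7299 on IL-7 loss and 10790 on CXCL12 without IL-7, against 1640, 1758 and 4543. In CXCR4-/- cultures, edgeR called 0 genes with the 2 groups alone (261 at an unadjusted p under 0.05) and 0 without the 4 Gapdh-high libraries (6079 at an unadjusted p under 0.05). DESeq2, run only with all libraries, called 6302, beside 5020 by edgeR with all libraries. In the 2 smaller edgeR fits Ltb was -0.88 (adjusted p = 0.42) and -0.90 (adjusted p = 0.053). Without the 4 Gapdh-high libraries Tnf in sorted wild type over culture was 0.78 (adjusted p = 0.057) and 1069 genes were called on IL-7 loss. With close pairs summed it was 0.78 (adjusted p = 0.10), with 355 genes on IL-7 loss and 1149 on CXCL12 without IL-7.

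For the described changes, the 2 groups alone gave -2.12 for Lta, 1.37 for Ltb and -1.85 for Tnf on CXCL12 without IL-7, and -5.59 for Lta, 0.76 for Ltb, -3.53 for Tnf and -4.93 for Tnfsf11 with CXCL12 alone over IL-7 alone. Omitting the Gapdh-high libraries gave 1.38 for Ltb and -1.84 for Tnf, and -5.56 for Lta, 0.77 for Ltb and -3.52 for Tnf, in these comparisons. The log2 ratio of the highest to the lowest group mean of Tnf was 4.11 without TMM scaling. In these alternatives the cause was not tested.

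Leaving out each library in turn gave 3137 to 4686 calls in sorted cells, the fewest without wild-type replicate 1, 0 to 8602 in CXCR4-/- cultures, 655 to 720 with the inhibitor over both factors, 589 to 851 on IL-7 loss and 2257 to 2573 on CXCL12 without IL-7. The 0 came without replicate 2 with CXCL12, where 4040 genes had an unadjusted p under 0.05. In these fits the lone library of a group is assumed to vary like the other groups. In sorted cells Lta ran from -7.50 to -0.73. The -7.50 rests on the 0 counts of CXCR4-/- replicate 1 and is no measure of the size of the difference. Tnfsf11 ran from -3.07 to -1.78 and Tnf from -0.97 to 0.11 in sorted cells, the last without CXCR4-/- replicate 2. In CXCR4-/- cultures Lta ran from -0.83 to -0.16 and Ltb from -1.34 to -0.27, and Ltb was not called without either CXCL12 library. Tnf in sorted wild type over culture ran from 0.64 to 0.93. On CXCL12 without IL-7 the ranges were -2.08 to -1.89 for Lta, 1.43 to 1.5 for Ltb, -1.80 to -1.71 for Tnf and -2.79 to -2.57 for Tnfsf11, and with CXCL12 alone over IL-7 alone -5.52 to -5.34, 0.82 to 0.94, -3.43 to -3.38 and -4.88 to -4.66. Peaks at the 4 genes were not run.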
